A study of Mus musculus with 10 samples.

Results

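The collagen genes of the mouse encode the chains of the main structural proteins of the extracellular matrix. They were taken as the protein-coding genes whose symbol is Col, digits, a, digits, which gave 44 of the 47069 gene IDs in the count files. By the protein they encode they fall into 11 fibrillar chains, 6 chains of basement membrane collagen type IV, 6 chains of type VI, 9 fibril-associated collagens (FACIT), 4 transmembrane collagens, 2 multiplexins, 3 short-chain network collagens (types VIII and X), the anchoring fibril collagen Col7a1, and 2 genes left unclassed here (Col26a1 and Col28a1). Their transcripts were compared between prostate orthografts of the mouse prostate cancer lines P1, CP1 and CP2.

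Collagen chains are translated into the endoplasmic reticulum, hydroxylated on proline and lysine, folded as trimers with the help of dedicated chaperones, secreted, trimmed at their ends and cross-linked. Fibrillar collagens form the tensile fibres of the stroma, type IV forms the sheet of the basement membrane, and type VI forms beaded microfibrils around cells. In a solid tumour fibroblasts are the best known source of fibrillar and type VI collagen, while epithelial, endothelial and muscle cells also make type IV.

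P1 (3 tumours) was derived from a prostate tumour of a mouse of 14 months. CP1 (3 tumours) and CP2 (4 tumours) were derived from prostate tumours of mice of 6 and 8 months that carried Ctnnb1pc(ex3)Δ/+, a deletion that stabilises beta-catenin and whose driver the labels do not name. P1 and the CP lines differ in genotype beyond this deletion too. Each line was expanded in culture, and its cells were then grafted into an anterior prostate lobe of male CD-1 Nude mice. These hosts have no normal thymus but keep stroma, vessels and myeloid cells. Each condition is thus a single line, and line, genotype and donor age cannot be told apart. Host and injected cells are both mouse, so a collagen transcript from the host stroma and one from the injected cells cannot be told apart, and in whole tumours fewer cells of a type and less RNA per cell cannot be told apart either. No label states that each library came from a separate animal, so p-values measure the spread between these samples, which may in part be technical.

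Total counts ranged from 28050484 to 37180721 in P1, from 25081535 to 30546426 in CP1 and from 18800912 to 20638085 in CP2. For CP2 replicate 1 the title says CP1, whereas the tissue and source labels say CP2. It was kept in CP2. Levels are given in CPM, which are counts scaled to a common library size, adjusted with TMM factors. Across genes its log2(CPM + 1) correlated at a mean of 0.991 with the remaining CP2 tumours and of 0.931 with CP1. Ctnnb1 ranged over 1796 to 1951 CPM in P1, 916 to 1171 CPM in CP1 and 936 to 1043 CPM in CP2, and a count per gene does not show the exon deletion. The labelled prostate tumour tissue carried its epithelial markers in P1, where 9 genes such as Epcam and Cdh1 summed to 7075 to 13297 CPM, against 432 to 1171 CPM in CP1 and 207 to 319 CPM in CP2, with none of them at 0. The sum of 10 seminal vesicle genes was 174130, 69695 and 18723 CPM in P1 replicates 1, 2 and 3 and at most 1613 CPM in every CP1 and CP2 tumour.

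Collagen transcripts took a larger share of all counts in both CP lines than in P1. The share was 1.39%, 0.973% and 0.791% in the P1 tumours, 4.03%, 3.27% and 3.07% in the CP1 tumours, and 2.19%, 1.99%, 1.96% and 2.31% in the CP2 tumours. The 3 lines did not overlap, and the order was CP1, CP2, P1. Seminal vesicle transcripts enlarge the total counts mainly in P1 and so lower its collagen share. The share without them was not computed. Collagen sums in TMM-scaled CPM were 8090 to 15930 in P1, 31196 to 40953 in CP1 and 18419 to 21902 in CP2. Summed over all 44 genes, CPM were on average 3.08 times as high in CP1 as in P1 and 1.78 times as high in CP2 as in P1. The make-up of this share differed too. Fibrillar genes held 67.4% ± 4.1 in P1, 59.4% ± 4.81 in CP1 and 46.7% ± 1.43 in CP2 of the collagen CPM (mean ± SD), and type VI genes held 5.16% ± 1.08 in P1, 20.0% ± 2.93 in CP1 and 31.8% ± 1.3 in CP2. Type IV genes held 14.1% ± 2.93 in P1, 8.21% ± 2.25 in CP1 and 10.7% ± 1.21 in CP2.

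**Figure D1:**
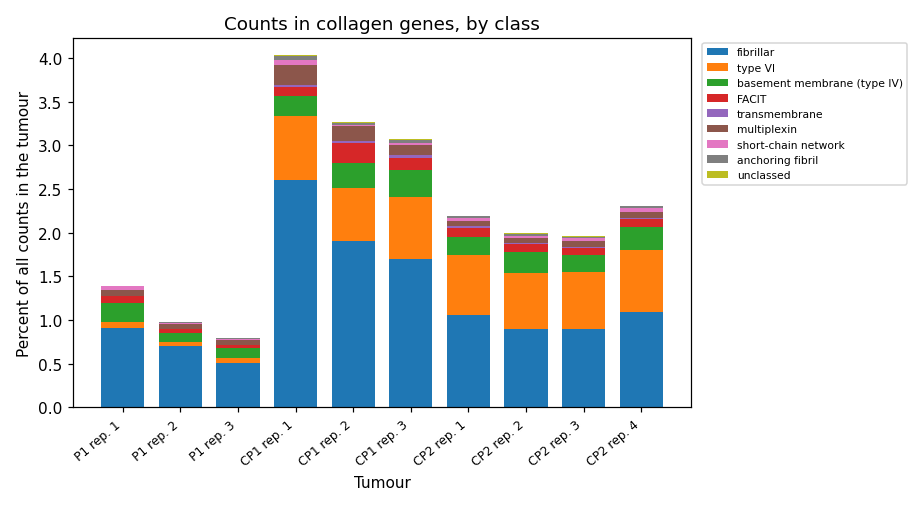
Percent of all counts of a tumour that fall in collagen genes, as bars stacked by collagen class, with 1 bar for each of the 10 tumours. The bars reach 0.791% to 1.39% in P1, 3.07% to 4.03% in CP1 and 1.96% to 2.31% in CP2, and the type VI segment is 0.0485 to 0.0581% in P1, 0.603 to 0.731% in CP1 and 0.643 to 0.702% in CP2.

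Calls required an adjusted p (Benjamini-Hochberg) below 0.05 in edgeR's quasi-likelihood test over 17644 genes, and 40 of the 44 collagen genes had enough counts to be tested. Between CP1 and P1, 17 collagen genes rose, 6 fell and 17 were not called. That is 57.5% called, where 44.8% of all genes tested were called (22.4% higher and 22.4% lower). Between CP2 and P1, 15 rose, 10 fell and 15 were not called, or 62.5%, where 56.7% of all genes were called (28.3% higher and 28.4% lower). Between CP2 and CP1, 5 were higher in CP2, 12 were lower and 23 were not called, or 42.5%, where 43.3% of all genes were called (21.3% higher and 21.9% lower). In CP1 42.5% of the members rose and 15% fell, and in CP2 against CP1 12.5% were higher and 30% lower. Whether the members differ from all genes in this balance was not tested. The median log2 change of the 40 genes was 0.86 in CP1 and 0.17 in CP2 against P1, and -0.43 in CP2 against CP1, beside medians over all genes of -0.01, 0.00 and -0.01. The comparisons of CP1 and CP2 with P1 share the P1 tumours, so their values are given side by side and not as 2 independent results.

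**Figure D2:**
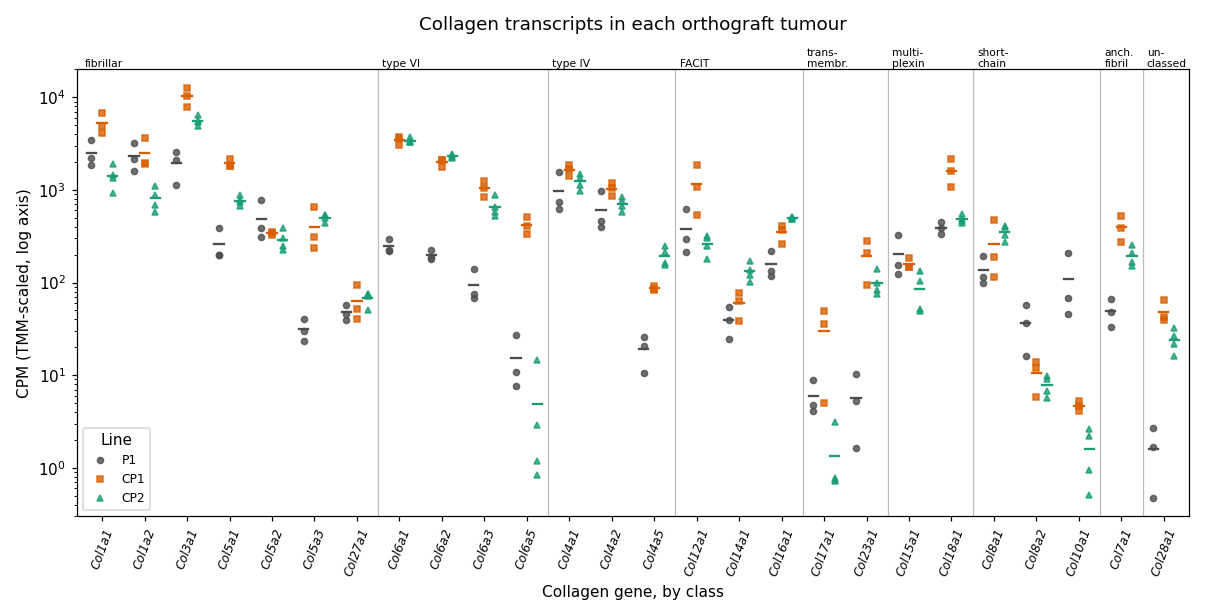
CPM (log axis) of the 26 collagen genes that average 20 CPM or more in a line, grouped by class, with 1 point per tumour and a bar at the mean of each line. Col6a1, Col6a2 and Col6a3 lie higher in all CP1 and CP2 tumours than in all P1 tumours, whereas Col6a5 is high in CP1 and at most 27.2 CPM in every P1 and CP2 tumour.

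Among the fibrillar genes the major chain Col3a1 rose in both CP lines, while the chains of type I collagen parted. Col3a1 (ENSMUSG00000026043, chromosome 1: 45311538 to 45349706), whose chain forms the reticular fibres of soft tissue, stood at 2562, 2089 and 1136 CPM in P1, 12750.3, 10343 and 7819.8 CPM in CP1, and 6383, 4892, 5424 and 5532 CPM in CP2. All CP tumours lay above all P1 tumours, and CP1 lay above CP2. It rose in CP1 (log2 2.42 ± 0.30, adjusted p = 1.324e-04) and in CP2 (log2 1.53 ± 0.28, adjusted p = 0.0011) and was lower in CP2 than in CP1 (log2 -0.89 ± 0.26, adjusted p = 0.0213). Col3a1 lost this last call without CP1 replicate 1, CP2 replicate 2, CP2 replicate 3 or CP2 replicate 4 (log2 -0.89 to -0.71, adjusted p = 0.0505 to 0.0777).

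Col1a1 (ENSMUSG00000001506, chromosome 11: 94936224 to 94953042) encodes the alpha1 chain of type I collagen, the main fibre protein of skin, bone and tendon. It stood at 3423, 2233 and 1870.3 CPM in P1, 6779, 4151 and 4946 CPM in CP1, and 1433, 1359, 933 and 1922 CPM in CP2. CP1 lay above both other lines, and the lowest P1 tumour was below the highest CP2 tumour. Col1a1 rose in CP1 (log2 1.08 ± 0.31, adjusted p = 0.0164), fell in CP2 (log2 -0.83 ± 0.28, adjusted p = 0.029) and was lower in CP2 than in CP1 (log2 -1.91 ± 0.29, adjusted p = 5.799e-04). Both calls against P1 depend on single tumours. Col1a1 was not called in CP1 without P1 replicate 2, P1 replicate 3 or CP1 replicate 1 (log2 0.85 to 0.98, adjusted p = 0.0572 to 0.0611). In CP2 it was not called without P1 replicate 1, CP2 replicate 1, CP2 replicate 2, CP2 replicate 3 or P1 replicates 1 and 2 together (log2 -0.83 to -0.43, adjusted p = 0.0574 to 0.352).

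Col1a2 encodes the alpha2 chain, the partner of Col1a1 in type I collagen. It stood at 3195, 2149 and 1615 CPM in P1, 3668, 1975 and 1928 CPM in CP1, and 885, 682, 574 and 1095 CPM in CP2. P1 and CP1 overlapped, and CP2 was below both. Col1a2 was not called in CP1 (log2 0.12 ± 0.34, adjusted p = 0.797), and the sign of that value turned without P1 replicate 3 (log2 -0.10, adjusted p = 0.851) or CP1 replicate 1 (log2 -0.26, adjusted p = 0.562). It fell in CP2 against P1 (log2 -1.52 ± 0.32, adjusted p = 0.0024) and against CP1 (log2 -1.64 ± 0.32, adjusted p = 0.0025). The fall against P1 was not called without P1 replicates 1 and 2 together (log2 -1.03, adjusted p = 0.0661).

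The balance of these 3 major chains is best seen as ratios within a tumour of levels per kilobase of the longest annotated transcript, which use no scaling between libraries. The size of a ratio depends on the transcript lengths used, while its change between lines does not. Col1a1 per Col1a2 was 0.937 to 1.04 in P1, 1.67 to 2.31 in CP1 and 1.46 to 1.8 in CP2. Col3a1 per Col1a1 was 0.647 to 0.997 in P1, 1.68 to 2.66 in CP1 and 3.07 to 6.2 in CP2. For this second ratio the 3 lines did not overlap. Per length the most abundant collagen transcript was Col1a2 in P1, and Col3a1 in CP1 and CP2. The mean level per length (RPKM) of Col3a1 was 347 in P1, 1852 in CP1 and 999 in CP2, that of Col1a1 423 in P1, 892 in CP1 and 238 in CP2, and that of Col1a2 434 in P1, 472 in CP1 and 151 in CP2.

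Type V collagen sits inside type I fibres and controls where they start and how thick they grow. Its alpha1 chain gene Col5a1 stood at 391, 200.0 and 199 CPM in P1, 2173, 1815 and 1830.3 CPM in CP1, and 733, 785, 668 and 887 CPM in CP2. The 3 lines did not overlap. Col5a1 rose in CP1 (log2 2.88 ± 0.27, adjusted p = 2.165e-05) and in CP2 (log2 1.54 ± 0.24, adjusted p = 4.218e-04) and was lower in CP2 than in CP1 (log2 -1.34 ± 0.23, adjusted p = 0.0013). Its usual partner Col5a2, which lies beside Col3a1 on chromosome 1 with 24614 bases between the genes, was called higher in no comparison. Col5a2 stood at 769.7, 388 and 312 CPM in P1, 347, 345 and 325 CPM in CP1, and 299.9, 249, 226 and 388 CPM in CP2. The lines overlapped, with P1 replicate 1 far above the rest. Col5a2 was not called in CP1 (log2 -0.53 ± 0.31, adjusted p = 0.193) and just passed as lower in CP2 (log2 -0.75 ± 0.29, adjusted p = 0.0457). Col5a2 lost that call without P1 replicate 1, CP1 replicate 1, CP1 replicate 2, CP1 replicate 3, CP2 replicate 1, CP2 replicate 2, CP2 replicate 3, P1 replicates 1 and 2 together or CP1 replicates 2 and 3 together and in the fit of these lines alone (log2 -0.77 to -0.13, adjusted p = 0.0546 to 0.695). Per length, Col5a1 per Col5a2 was 0.401 to 0.503 in P1, 4.15 to 4.93 in CP1 and 1.8 to 2.49 in CP2.

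Col5a3, which encodes another type V chain, moved furthest among the fibrillar genes. It stood at 40.8, 23.5 and 29.9 CPM in P1, 655, 237 and 312 CPM in CP1, and 438, 536, 536 and 499.6 CPM in CP2. Every CP tumour lay above every P1 tumour. Col5a3 rose in CP1 (log2 3.68 ± 0.37, adjusted p = 3.710e-05) and in CP2 (log2 4.00 ± 0.37, adjusted p = 1.418e-05), and CP2 and CP1 overlapped (log2 0.32 ± 0.31, adjusted p = 0.428). Without CP1 replicates 2 and 3 the sign of this last value turned (log2 -0.39, adjusted p = 0.325), whereas Col5a3 was called higher in CP2 without CP1 replicate 1 (log2 0.87, adjusted p = 0.0124). Per length, Col5a3 per Col5a1 was 0.143 to 0.206 in P1, 0.18 to 0.414 in CP1 and 0.774 to 1.1 in CP2.

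The other fibrillar genes were lower in level. Col27a1, a minor fibrillar chain made in cartilage and other tissues, stood at 57.6, 39.8 and 45.7 CPM in P1, 95.1, 52.4 and 40.8 CPM in CP1, and 51.2, 75.2, 75.8 and 72.1 CPM in CP2, and no comparison called it (log2 0.40 ± 0.29, adjusted p = 0.294 in CP1 and log2 0.52 ± 0.27, adjusted p = 0.125 in CP2). Col27a1 was called higher in CP1 without CP1 replicates 2 and 3 together (log2 1.00, adjusted p = 0.0176) and in CP2 without CP1 replicate 1 or CP1 replicates 2 and 3 together and in the fit of these lines alone (log2 0.51 to 0.53, adjusted p = 0.0305 to 0.0335). Col11a1, Col11a2 and Col24a1 stayed at or below 12.0 CPM in every tumour, and Col2a1, the main chain of cartilage fibres, was not tested, with at most 0.0706 CPM in any tumour. Of these 4, Col24a1 alone was called, as lower in CP2 than in CP1 (log2 -1.62 ± 0.39, adjusted p = 0.0082). Its values were 1.05, 2.62 and 1.5 CPM in P1, 2.51, 4.7 and 2.91 CPM in CP1, and 1.08, 1.32, 0.593 and 1.4 CPM in CP2. Col24a1 was not called without CP1 replicates 2 and 3 together (log2 -1.19, adjusted p = 0.153). Over the class, 4 of 10 tested fibrillar genes rose and 0 fell in CP1 (median log2 0.68), while 3 rose and 3 fell in CP2 (median log2 -0.49). Of the 17644 genes 22.4% rose and 22.4% fell in CP1, while 28.3% rose and 28.4% fell in CP2, so the fibrillar counts in CP2 were near the share of all genes. The 0 falls in CP1 stayed 0 at an unadjusted edgeR p below 0.05 and by DESeq2. Summed fibrillar CPM were 5219 to 10456 in P1, 17212 to 26478 in CP1 and 8443 to 10407 in CP2, so that P1 and CP2 overlapped in the sum.

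The 3 main type VI genes rose together in both CP lines. A type VI molecule joins the products of Col6a1 and Col6a2 with another chain, either that of Col6a3 or one of the related chains of Col6a4, Col6a5 and Col6a6. Col6a1 (ENSMUSG00000001119, chromosome 10: 76708792 to 76726168) and Col6a2 (ENSMUSG00000020241, chromosome 10: 76595762 to 76623630) are neighbours on the same strand, with starts 102538 bases apart. Col6a4, Col6a5 and Col6a6 lie together on chromosome 9. The bases directly upstream of 4 of these genes are shown because 3 of them rose in both CP lines, whereas Col6a5 was high in CP1 and low in CP2. They are RefSeq promoter windows on GRCm38.p6, 5′ to 3′ on the strand of the gene, cut to end before the first transcribed base of the RefSeq and GENCODE starts. Capitals mark matches on either strand to 4 motifs: the TATA box (TATAAA), the CCAAT box (CCAAT), the GC box (GGGCGG), and the TCF/LEF site, written CTTTGAA with the variant forms CTTTGAT and also CTTTGTA or otherwise CTTTGTT, which are sites of the DNA-binding partners of beta-catenin.
Col6a1: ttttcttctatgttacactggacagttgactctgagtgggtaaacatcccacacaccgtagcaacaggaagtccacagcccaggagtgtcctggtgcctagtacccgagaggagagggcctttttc
Col6a2: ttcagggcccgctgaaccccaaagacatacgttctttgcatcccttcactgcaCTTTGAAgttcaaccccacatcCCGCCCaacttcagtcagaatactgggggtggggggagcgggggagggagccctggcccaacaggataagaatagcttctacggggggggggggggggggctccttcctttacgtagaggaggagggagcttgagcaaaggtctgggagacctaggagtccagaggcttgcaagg
Col6a3: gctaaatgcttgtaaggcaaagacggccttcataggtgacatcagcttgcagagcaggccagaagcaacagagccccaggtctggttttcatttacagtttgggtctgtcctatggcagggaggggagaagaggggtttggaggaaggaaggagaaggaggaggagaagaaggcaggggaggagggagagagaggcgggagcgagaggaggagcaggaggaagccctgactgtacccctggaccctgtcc
Col6a5: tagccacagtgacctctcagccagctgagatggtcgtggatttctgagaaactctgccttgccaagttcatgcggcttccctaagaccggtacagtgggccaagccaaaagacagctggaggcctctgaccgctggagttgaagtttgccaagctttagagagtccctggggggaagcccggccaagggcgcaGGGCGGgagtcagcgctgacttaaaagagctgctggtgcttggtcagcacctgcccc
The windows are chr10:76726169-76726294, minus strand, 126 bases for Col6a1, chr10:76623631-76623880, minus strand, 250 bases for Col6a2, chr1:90843972-90844221, minus strand, 250 bases for Col6a3, and chr9:105960644-105960893, minus strand, 250 bases for Col6a5. Col6a2 holds a TCF/LEF match at position -197, counted back from the last base shown, and a GC box at -175. Col6a5 holds a GC box at -57. No matches overlap each other. No letters of the 4 motifs were found in the windows of Col6a1 and Col6a3. Among 32851 mouse promoter windows of 250 bases 14.8% hold a TCF/LEF match, 32.7% a GC box, 33.8% a CCAAT box and 12.4% a TATA box. In windows of 126 bases, the length shown for Col6a1, these shares are 8.43%, 13.5%, 16.9% and 6.26%. Of the 44 collagen genes 35 have an entry in the promoter table.

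Col6a1 stood at 294, 226 and 221 CPM in P1, 3549.5, 3019 and 3734 CPM in CP1, and 3695, 3252, 3295 and 3348 CPM in CP2. P1 lay far below both CP lines, which overlapped each other. Col6a1 rose in CP1 (log2 3.80 ± 0.17, adjusted p = 4.552e-07) and in CP2 (log2 3.78 ± 0.16, adjusted p = 2.981e-07), and the difference between CP2 and CP1 was near 0 (log2 -0.02 ± 0.14, adjusted p = 0.938) with a sign that turned in 4 fits with a tumour left out. Col6a2 stood at 222, 178 and 191 CPM in P1, 2107, 1782 and 2083 CPM in CP1, and 2370.3, 2219, 2258 and 2431 CPM in CP2 and rose as well, in CP1 (log2 3.34 ± 0.14, adjusted p = 4.289e-07) and in CP2 (log2 3.56 ± 0.14, adjusted p = 1.700e-07). Its CP2 tumours lay above its CP1 tumours, a difference that was not called (log2 0.22 ± 0.12, adjusted p = 0.156). Tumours of each line lay close together for both genes. Per length, Col6a1 per Col6a2 was 1.31 to 1.5 in P1, 1.91 to 2.03 in CP1 and 1.56 to 1.77 in CP2.

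Col6a3, whose chain is the usual partner of both, stood at 139, 74.6 and 67.6 CPM in P1, 1248, 837 and 1051 CPM in CP1, and 528, 651, 579.8 and 882 CPM in CP2. It rose in CP1 (log2 3.48 ± 0.32, adjusted p = 2.167e-05) and in CP2 (log2 2.81 ± 0.30, adjusted p = 3.693e-05), and CP1 and CP2 overlapped (log2 -0.66 ± 0.27, adjusted p = 0.0724). Col6a3 was called lower in CP2 than in CP1 without P1 replicate 1, CP2 replicate 4 or P1 replicates 1 and 2 together and by DESeq2 and in the fit of these lines alone (log2 -0.83 to -0.66, adjusted p = 0.0207 to 0.0419). Col6a3 per Col6a1 was 0.124 to 0.193 in P1, 0.113 to 0.143 in CP1 and 0.058 to 0.107 in CP2, per length. CP2 was below both other lines in this ratio.

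Col6a5 had the largest fitted difference between the CP lines among the 40 tested collagen genes. It stood at 7.73, 10.9 and 27.2 CPM in P1, 508, 335 and 412 CPM in CP1, and 2.93, 1.18, 14.4 and 0.837 CPM in CP2. All CP1 tumours were high, all P1 and CP2 tumours were low, and P1 and CP2 overlapped. Col6a5 rose in CP1 (log2 4.78 ± 0.95, adjusted p = 0.0023), was not called in CP2 against P1 (log2 -1.64 ± 0.81, adjusted p = 0.108) and was lower in CP2 than in CP1 (log2 -6.42 ± 0.91, adjusted p = 4.390e-04). Col6a5 was called lower in CP2 than in P1 without CP2 replicate 3 (log2 -3.22, adjusted p = 0.00162). Without P1 replicate 3 the CP1 value was log2 5.48, adjusted p = 0.00434, and without CP2 replicate 3 the CP2 against CP1 value was log2 -8.00, adjusted p = 8.021e-05. The rise in CP1 was not called without P1 replicates 1 and 2 together (log2 3.91, adjusted p = 0.0674). Per length, Col6a5 per Col6a3 was 0.427 to 0.443 in CP1, 0.0603 to 0.438 in P1 and 0.00103 to 0.0271 in CP2, so that the highest P1 tumour reached the CP1 range. Its neighbours on chromosome 9 were low everywhere. Col6a6 stood at 0.8, 2.77 and 3.06 CPM in P1, 7.55, 6.62 and 7.73 CPM in CP1, and 0.925, 0.883, 1.96 and 0.605 CPM in CP2, rose in CP1 (log2 1.72 ± 0.50, adjusted p = 0.0173) and was lower in CP2 than in CP1 (log2 -2.73 ± 0.48, adjusted p = 0.0014). Col6a6 lost the call in CP1 without P1 replicates 1 and 2 together or CP1 replicates 2 and 3 together (log2 1.22 to 1.78, adjusted p = 0.0927 to 0.12). Col6a4 reached at most 1.69 CPM in any tumour and was not called.

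Summed type VI CPM were 493 to 665 in P1, 5981 to 7422 in CP1 and 6124 to 6663 in CP2. The mean sum was 12.4 times as high in CP1 as in P1 and 11.5 times as high in CP2. Over the class, 5 of 6 genes rose in CP1 (median log2 3.41) and 3 of 6 in CP2 (median log2 0.90). Among all genes tested 22.4% and 28.3% rose. In either line 0 type VI genes fell, also at an unadjusted edgeR p below 0.05 and by DESeq2, beside 22.4% and 28.4% of all genes. The 14 fibroblast genes, among them Pdgfra, Pdgfrb and Thy1, summed to 741 to 1049 CPM in P1, 843 to 1150.1 CPM in CP1 and 1426 to 1718 CPM in CP2. Of these 14, 2 rose and 2 fell in CP1, and 5 rose and 7 fell in CP2. The shares of all genes tested that rose and fell were 22.4% and 22.4% in CP1, and 28.3% and 28.4% in CP2. The fibroblast counts in CP1 were not above those shares. Clec3b alone was at 0 in a tumour. The part of fibroblast number in the collagen levels was not tested.

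**Figure D3:**
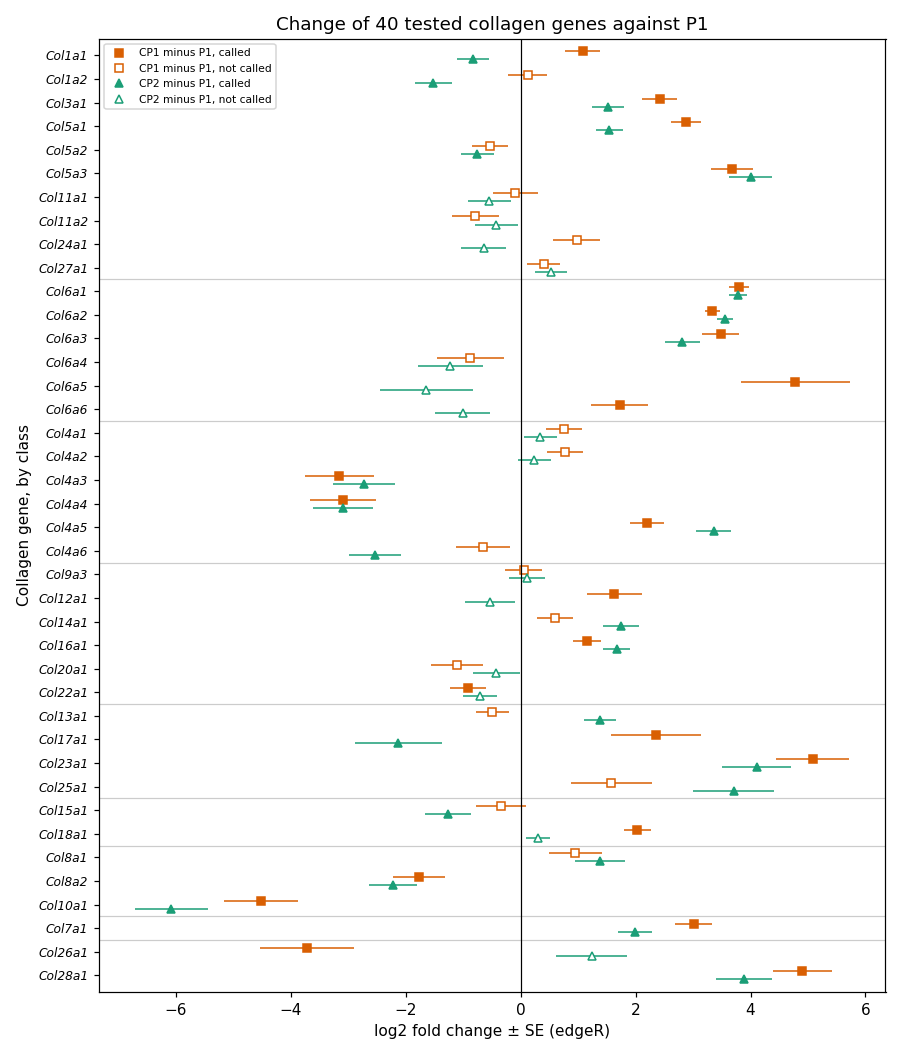
Log2 fold change of the 40 tested collagen genes in CP1 (squares) and CP2 (triangles) against P1, with SE as bars, ordered by class with lines between classes. Filled symbols are called at an adjusted p below 0.05 and open ones are not. Col6a1, Col6a2, Col6a3, Col4a5, Col5a3, Col23a1 and Col28a1 lie right of 2 in both lines, and Col4a3, Col4a4 and Col10a1 lie left of -2 in both.

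Type IV collagen is built from 6 chains encoded by 3 head-to-head gene pairs. Col4a1 and Col4a2 make the form found in nearly every basement membrane and start 21 bases apart on chromosome 8. Col4a1 stood at 1549, 629.8 and 749 CPM in P1, 1404, 1689.9 and 1863 CPM in CP1, and 1121, 1344, 978 and 1499 CPM in CP2. Col4a2 stood at 966, 395 and 457 CPM in P1, 852, 1049 and 1201 CPM in CP1, and 674, 765, 575 and 836 CPM in CP2. All lines overlapped for Col4a1. For Col4a2 the P1 tumours overlapped both CP lines, while CP2 lay below CP1. Neither was called in CP1 (log2 0.76 ± 0.31, adjusted p = 0.0731 for Col4a1, and log2 0.77 ± 0.31, adjusted p = 0.0675 for Col4a2) or in CP2 (log2 0.34 ± 0.29, adjusted p = 0.344, and log2 0.23 ± 0.29, adjusted p = 0.513). The sign of the Col4a2 value in CP2 turned without P1 replicate 2 (log2 -0.02, adjusted p = 0.964). These calls depended on P1 replicate 1, the highest P1 tumour for both genes. Col4a1 was higher in CP1 without P1 replicate 1 or P1 replicates 1 and 2 together and by DESeq2 (log2 0.75 to 1.24, adjusted p = 0.00141 to 0.0396) and in CP2 without P1 replicate 1 (log2 0.82, adjusted p = 0.00705). Col4a2 was higher in CP1 without P1 replicate 1 or P1 replicates 1 and 2 together and by DESeq2 (log2 0.76 to 1.26, adjusted p = 9.863e-04 to 0.0362) and in CP2 without P1 replicate 1 (log2 0.72, adjusted p = 0.0102). Between CP2 and CP1, Col4a2 was lower without P1 replicate 1 or P1 replicates 1 and 2 together and in the fit of these lines alone (log2 -0.55 to -0.54, adjusted p = 0.0216 to 0.0258), against log2 -0.54 ± 0.29, adjusted p = 0.156 as fitted over all tumours. Their ratio per length was 1.56 to 1.6 in P1, 1.51 to 1.61 in CP1 and 1.62 to 1.75 in CP2. Endothelial markers, which stand for a cell type that makes this form, summed over 10 genes to 253 to 440.2 CPM in P1, 298 to 364 CPM in CP1 and 189 to 300.0 CPM in CP2. Of these 10 genes 0 were called in CP1 by edgeR or DESeq2, and 0 had an unadjusted edgeR p below 0.05. In CP2 5 fell. Among all genes tested 44.8% were called in CP1, and 28.4% fell in CP2.

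Col4a3 and Col4a4, which with Col4a5 form the collagen of the mature kidney glomerulus, start 72 bases apart on chromosome 1 and fell together. Col4a3 stood at 6.31, 3.3 and 1.64 CPM in P1, 0.318, 0.487 and 0.445 CPM in CP1, and 0.668, 0.343, 0.228 and 1.02 CPM in CP2. Col4a4 stood at 12.7, 5.45 and 3.14 CPM in P1, 0.565, 0.973 and 0.931 CPM in CP1, and 0.565, 0.589, 0.593 and 1.53 CPM in CP2. All P1 tumours lay above all CP tumours for both genes. Col4a3 fell in CP1 (log2 -3.16 ± 0.60, adjusted p = 0.0019) and in CP2 (log2 -2.72 ± 0.54, adjusted p = 0.0017). Col4a4 fell likewise (log2 -3.10 ± 0.58, adjusted p = 0.0016 in CP1, and log2 -3.10 ± 0.52, adjusted p = 6.727e-04 in CP2). Without P1 replicate 1 the Col4a4 values were nearer to 0 (log2 -2.39, adjusted p = 0.00341 in CP1, and log2 -2.39, adjusted p = 0.00174 in CP2). Col4a3 was not called in CP2 without P1 replicates 1 and 2 together (log2 -1.56, adjusted p = 0.074).

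Col4a5 and Col4a6, the pair on the X chromosome, moved in opposite directions in CP2. Their starts are 1309 bases apart and face away from each other. The upstream bases of both are shown because a shared region lies between genes whose levels parted, with capitals as for the type VI genes.
Col4a5: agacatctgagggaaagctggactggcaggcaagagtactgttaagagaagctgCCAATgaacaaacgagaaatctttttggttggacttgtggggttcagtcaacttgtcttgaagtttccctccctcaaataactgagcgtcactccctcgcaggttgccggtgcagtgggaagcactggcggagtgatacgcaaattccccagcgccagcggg
Col4a6: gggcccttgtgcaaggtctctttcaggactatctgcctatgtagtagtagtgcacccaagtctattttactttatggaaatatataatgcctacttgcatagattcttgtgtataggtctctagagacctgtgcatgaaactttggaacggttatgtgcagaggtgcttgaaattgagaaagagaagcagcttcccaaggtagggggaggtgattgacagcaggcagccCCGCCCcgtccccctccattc
The windows are chrX:141475169-141475384, plus strand, 216 bases for Col4a5 and chrX:141474077-141474326, minus strand, 250 bases for Col4a6. Col4a5 holds a CCAAT box at -162, a motif found in 30.5% of all promoter windows of 216 bases, and Col4a6 holds a GC box at -21. No TCF/LEF letters were found in either window.

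Col4a5 stood at 25.7, 20.7 and 10.6 CPM in P1, 82.2, 92.3 and 86.0 CPM in CP1, and 249, 164, 214 and 154 CPM in CP2. The 3 lines did not overlap, with CP2 highest and P1 lowest. Col4a5 rose in CP1 (log2 2.19 ± 0.30, adjusted p = 2.206e-04) and in CP2 (log2 3.36 ± 0.30, adjusted p = 1.183e-05) and was higher in CP2 than in CP1 (log2 1.17 ± 0.27, adjusted p = 0.0065). Col4a5 lost the last call without CP1 replicates 2 and 3 together (log2 1.24, adjusted p = 0.0902). Col4a6 stood at 10.5, 6.14 and 22.1 CPM in P1, 5.26, 13.1 and 6.15 CPM in CP1, and 1.69, 2.65, 2.55 and 1.95 CPM in CP2. CP2 lay below all other tumours. Col4a6 was not called in CP1 (log2 -0.66 ± 0.47, adjusted p = 0.286), fell in CP2 (log2 -2.54 ± 0.46, adjusted p = 9.897e-04) and was lower in CP2 than in CP1 (log2 -1.88 ± 0.45, adjusted p = 0.008). Without P1 replicate 3, the highest tumour, the fall in CP2 was log2 -1.92, adjusted p = 0.00312. Col4a6 was not called between the CP lines without CP1 replicates 2 and 3 together (log2 -1.25, adjusted p = 0.155). Per length, Col4a5 per Col4a6 was 0.488 to 3.43 in P1, 7.18 to 15.9 in CP1 and 62.8 to 149 in CP2, so the pair leaned to Col4a5 in every CP tumour and the 3 lines did not overlap.

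**Figure D4:**
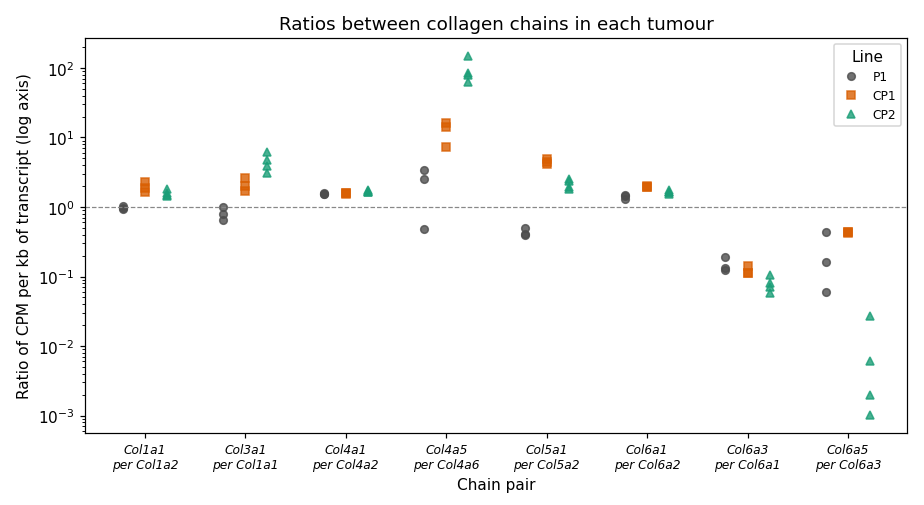
Ratio of levels per kilobase of transcript (log axis) for 8 pairs of collagen chains, with 1 point per tumour. The dashed line marks a ratio of 1. Col4a1 per Col4a2 lies between 1.51 and 1.75 in all 10 tumours. Col4a5 per Col4a6, Col5a1 per Col5a2, Col3a1 per Col1a1 and, by narrower gaps, Col6a1 per Col6a2 separate the 3 lines.

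The FACIT genes encode collagens that decorate the surface of fibres. Col12a1 and Col14a1 bind type I fibres, and between CP2 and CP1 they were called in opposite directions. Col12a1 stood at 618, 293 and 216 CPM in P1, 543, 1851 and 1085 CPM in CP1, and 315, 246, 177 and 302 CPM in CP2. CP1 replicates 2 and 3 were the highest, and CP1 replicate 1 lay below the highest P1 tumour. Col12a1 rose in CP1 (log2 1.63 ± 0.48, adjusted p = 0.0194), was not called in CP2 (log2 -0.53 ± 0.44, adjusted p = 0.323) and was lower in CP2 than in CP1 (log2 -2.16 ± 0.44, adjusted p = 0.0034). The rise in CP1 was not called without P1 replicate 2, P1 replicate 3, CP1 replicate 2 or CP1 replicates 2 and 3 together and in the fit of these lines alone (log2 0.53 to 1.61, adjusted p = 0.0571 to 0.493). The difference between the CP lines was not called without CP1 replicates 2 and 3 together (log2 -1.06, adjusted p = 0.158). The sign in CP2 turned without P1 replicate 1 (log2 0.01, adjusted p = 0.979). The same CP1 tumours stood above CP1 replicate 1 in the epithelial, smooth muscle and urothelial marker lists. The 9 epithelial genes summed to 432, 1171 and 998 CPM in CP1 replicates 1, 2 and 3, against 7075 to 13297 CPM in P1 and 207 to 319 CPM in CP2. The 10 pericyte and smooth muscle genes summed to 489.5, 1951 and 2824 CPM in CP1 replicates 1, 2 and 3, and the 7 urothelial genes to 153, 1468 and 672 CPM. In P1 the smooth muscle and urothelial lists summed to 673 to 1994 and 132 to 163 CPM, and in CP2 to 265 to 529.6 and 102 to 127 CPM. Of the smooth muscle list 0 genes were called in CP1 by edgeR, with 1 lower by DESeq2 and 1 at an unadjusted edgeR p below 0.05, and 7 fell in CP2. Of the urothelial list 6 rose in CP1 and 2 fell in CP2, with Upk3a and Snx31 at 0 in at least 1 tumour. Among all genes tested 22.4% rose and 22.4% fell in CP1, and 28.4% fell in CP2. The part of these cells in the Col12a1 levels was not tested.

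Col14a1 stood at 54.3, 39.3 and 24.8 CPM in P1, 77.4, 63.7 and 38.1 CPM in CP1, and 169, 102, 138 and 122 CPM in CP2. CP2 lay above all other tumours, and P1 and CP1 overlapped. Col14a1 rose in CP2 against P1 (log2 1.75 ± 0.31, adjusted p = 9.168e-04) and against CP1 (log2 1.15 ± 0.30, adjusted p = 0.0125) and was not called in CP1 (log2 0.60 ± 0.32, adjusted p = 0.155), except without P1 replicates 1 and 2 together (log2 1.24, adjusted p = 0.045). The difference between the CP lines was not called without CP1 replicates 2 and 3 together (log2 0.78, adjusted p = 0.209). Col16a1, a fibre-associated collagen found near cells, stood at 221, 132 and 117 CPM in P1, 411, 372 and 262 CPM in CP1, and 513, 484, 484 and 512 CPM in CP2 and rose in CP1 (log2 1.15 ± 0.24, adjusted p = 0.0028) and in CP2 (log2 1.67 ± 0.23, adjusted p = 1.805e-04), with every CP tumour above every P1 tumour and every CP2 tumour above every CP1 tumour, without a call between the CP lines (log2 0.52 ± 0.22, adjusted p = 0.0845). Col16a1 was called higher in CP2 than in CP1 without P1 replicate 1 or P1 replicates 1 and 2 together and in the fit of these lines alone (log2 0.50 to 0.52, adjusted p = 0.0153 to 0.0198).

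The remaining 6 FACIT genes were low. Col20a1 reached at most 5.08 CPM, Col9a3 1.28 CPM and Col22a1 1.02 CPM in any tumour. Col22a1, found at tissue junctions such as that of muscle and tendon, stood at 1.02, 0.873 and 0.693 CPM in P1, 0.353, 0.519 and 0.486 CPM in CP1, and 0.411, 0.49, 0.775 and 0.419 CPM in CP2 and was called as lower in CP1 (log2 -0.92 ± 0.32, adjusted p = 0.0369). That call was lost in 12 of 18 alternative fits, which are the test against a 2-fold change and those without P1 replicate 1, P1 replicate 2, CP1 replicate 1, CP1 replicate 2, CP1 replicate 3, CP2 replicate 2, P1 replicates 1 and 2 together or CP1 replicates 2 and 3 together and by DESeq2, with no filter on low counts and in the fit of these lines alone (log2 -1.27 to -0.64, adjusted p = 0.0534 to 0.331). Col9a1, Col9a2 and Col19a1 were not tested, with at most 0.369 CPM in any tumour. Of 6 tested FACIT genes 2 rose and 1 fell in CP1, and 2 rose and 0 fell in CP2, where 1 had a lower value at an unadjusted edgeR p below 0.05 and DESeq2 called 0. Of all genes tested 22.4% rose and 22.4% fell in CP1, and 28.3% rose and 28.4% fell in CP2. With 6 genes tested, the FACIT counts that rose in both lines and that fell in CP1 were near those shares.

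The transmembrane collagens are anchored in the cell surface and can be shed from it. Col23a1 had the largest changes of this class against P1. It stood at 10.2, 5.27 and 1.64 CPM in P1, 282, 94.2 and 207 CPM in CP1, and 139, 74.6, 98.4 and 83.9 CPM in CP2. Every CP tumour lay above every P1 tumour. Col23a1 rose in CP1 (log2 5.08 ± 0.64, adjusted p = 1.447e-04) and in CP2 (log2 4.11 ± 0.60, adjusted p = 2.660e-04), and without P1 replicate 1, the highest of its line, the values were log2 5.78, adjusted p = 1.696e-04 and log2 4.81, adjusted p = 2.531e-04. The CP lines overlapped in Col23a1 (log2 -0.97 ± 0.49, adjusted p = 0.138).

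Col17a1, a component of the hemidesmosomes that fix epithelial cells to the basement membrane, stood at 8.77, 4.08 and 4.81 CPM in P1, 5.05, 36.1 and 49.7 CPM in CP1, and 0.719, 3.14, 0.775 and 0.744 CPM in CP2. CP1 replicates 2 and 3 were high, CP1 replicate 1 lay within the range of P1, and CP2 lay below all other tumours. Col17a1 rose in CP1 (log2 2.36 ± 0.78, adjusted p = 0.0319), fell in CP2 (log2 -2.13 ± 0.76, adjusted p = 0.0353) and was lower in CP2 than in CP1 (log2 -4.49 ± 0.79, adjusted p = 0.0015). The rise in CP1 was not called without P1 replicate 2, P1 replicate 3, CP1 replicate 2, CP1 replicate 3, P1 replicates 1 and 2 together or CP1 replicates 2 and 3 together and in the fit of these lines alone (log2 -0.22 to 2.63, adjusted p = 0.0523 to 0.873). With both of those CP1 tumours left out the sign turned (log2 -0.22, adjusted p = 0.873). The fall in CP2 was not called without P1 replicate 1, P1 replicate 3, CP2 replicate 1, CP2 replicate 3, CP2 replicate 4 or P1 replicates 1 and 2 together (log2 -2.27 to -1.75, adjusted p = 0.0552 to 0.195). Without CP2 replicate 2, the highest of its line, the fall in CP2 was larger (log2 -2.97, adjusted p = 0.0112), as was the difference between the CP lines (log2 -5.33, adjusted p = 0.00148). That difference was not called without CP1 replicates 2 and 3 together (log2 -1.91, adjusted p = 0.105). CP1 replicates 2 and 3 were also the tumours with the most urothelial transcripts. The 9 epithelial markers summed to 432, 1171 and 998 CPM in CP1 replicates 1, 2 and 3, with Krt5 at 19.9, 353 and 243 CPM. The part of urothelium and of other epithelium in the Col17a1 levels was not tested.

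Col13a1, which is found at adhesion sites and at the neuromuscular junction, and Col25a1, known from motor nerve development, were highest in CP2. Col13a1 stood at 5.79, 2.4 and 4.52 CPM in P1, 3.11, 3.21 and 2.67 CPM in CP1, and 9.3, 12.4, 10.8 and 11.5 CPM in CP2. It rose in CP2 against P1 (log2 1.38 ± 0.27, adjusted p = 0.0017) and against CP1 (log2 1.87 ± 0.28, adjusted p = 5.638e-04). Col25a1 stood at 0.677, 0.841 and 0.292 CPM in P1, 0.212, 2.17 and 3.12 CPM in CP1, and 8.01, 7.21, 9.48 and 7.3 CPM in CP2 and rose in CP2 against P1 (log2 3.71 ± 0.71, adjusted p = 0.0014) and against CP1 (log2 2.13 ± 0.64, adjusted p = 0.0231). For both genes CP2 lay above all other tumours. Neither was called in CP1 (log2 -0.50 ± 0.29, adjusted p = 0.187 for Col13a1, and log2 1.58 ± 0.71, adjusted p = 0.0956 for Col25a1). Without CP1 replicate 3 the Col25a1 difference between the CP lines was log2 2.73, adjusted p = 0.0198, and it was not called without CP1 replicate 2 or CP2 replicate 3 (log2 2.04 to 2.27, adjusted p = 0.0501 to 0.0529). Over the class 2 of 4 genes rose and 0 fell in CP1 (0 also at an unadjusted edgeR p below 0.05 and by DESeq2), and 3 rose and 1 fell in CP2, beside 22.4% and 28.3% of all genes tested that rose and 22.4% and 28.4% that fell.

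Of the multiplexins, which are basement membrane collagens that carry sugar chains, Col18a1 rose in CP1. Col18a1, the source of the fragment endostatin, stood at 456, 335 and 387 CPM in P1, 2143, 1582 and 1086 CPM in CP1, and 444, 486, 546 and 466 CPM in CP2. CP1 lay above all other tumours, and P1 and CP2 overlapped. It rose in CP1 (log2 2.03 ± 0.23, adjusted p = 7.421e-05), was not called in CP2 (log2 0.31 ± 0.21, adjusted p = 0.234) and was lower in CP2 than in CP1 (log2 -1.72 ± 0.21, adjusted p = 1.650e-04). Col15a1, found in the basement membranes of vessels and muscle, stood at 326, 156 and 125 CPM in P1, 184, 146 and 148 CPM in CP1, and 103, 49.4, 51.9 and 133 CPM in CP2. P1 replicate 1 was the highest tumour, and P1 overlapped both CP lines. Col15a1 fell in CP2 (log2 -1.26 ± 0.40, adjusted p = 0.0218), and the fall was not called without P1 replicate 1, CP2 replicate 2, CP2 replicate 3 or P1 replicates 1 and 2 together (log2 -1.08 to -0.59, adjusted p = 0.0544 to 0.354). In CP1 it was not called (log2 -0.35 ± 0.43, adjusted p = 0.546), with a sign that turned without P1 replicate 1 (log2 0.16, adjusted p = 0.768). CP2 lay below CP1 without a call (log2 -0.91 ± 0.40, adjusted p = 0.0918), and Col15a1 was called there without P1 replicate 1 or CP2 replicate 4 and by DESeq2 (log2 -1.22 to -0.91, adjusted p = 0.0381 to 0.0488).

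Among the short-chain collagens Col10a1 fell furthest of all collagen genes. Col10a1, the collagen of hypertrophic cartilage, stood at 210.4, 45.9 and 68.2 CPM in P1, 4.13, 5.32 and 4.66 CPM in CP1, and 0.514, 2.21, 0.957 and 2.65 CPM in CP2. Every P1 tumour lay above every CP tumour. Col10a1 fell in CP1 (log2 -4.52 ± 0.65, adjusted p = 3.224e-04) and in CP2 (log2 -6.09 ± 0.63, adjusted p = 3.006e-05), and CP2 lay below CP1 without a call (log2 -1.56 ± 0.61, adjusted p = 0.0615). Col10a1 was called lower in CP2 than in CP1 without P1 replicate 1, P1 replicate 2 or P1 replicates 1 and 2 together and by DESeq2 and in the fit of these lines alone (log2 -1.58 to -1.56, adjusted p = 0.014 to 0.0397). Without P1 replicate 1, the highest tumour, the values were log2 -3.62, adjusted p = 3.781e-04 and log2 -5.18, adjusted p = 3.055e-05. The 9 cartilage and bone markers summed to 6.4 to 16.3 CPM in P1, 7.46 to 46.2 CPM in CP1 and 29.5 to 56.5 CPM in CP2. Of the 6 tested, 3 rose and 1 fell in CP1, and 2 rose and 2 fell in CP2. Beside this, 22.4% of all genes rose and 22.4% fell in CP1, and 28.3% rose and 28.4% fell in CP2. Acan, Bglap, Matn1, Matn3 and Dmp1 were at 0 in at least 1 tumour.

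Col8a1 and Col8a2 form the hexagonal network known from the cornea and from vessel walls. Col8a1 stood at 192, 114 and 99.4 CPM in P1, 479, 116 and 190.0 CPM in CP1, and 399, 272, 327 and 404 CPM in CP2. It rose in CP2 (log2 1.37 ± 0.44, adjusted p = 0.0219) and was not called in CP1 (log2 0.95 ± 0.46, adjusted p = 0.117), where 1 of 3 tumours was high. Col8a1 was called higher in CP1 without CP1 replicate 2 or CP1 replicates 2 and 3 together (log2 1.31 to 1.83, adjusted p = 0.0045 to 0.0245). Between CP2 and CP1 it was not called (log2 0.42 ± 0.43, adjusted p = 0.445), but it was higher in CP2 without CP1 replicate 1 (log2 1.19, adjusted p = 0.0159). Col8a1 lost the call in CP2 without P1 replicate 2, P1 replicate 3 or P1 replicates 1 and 2 together (log2 1.18 to 1.79, adjusted p = 0.0722 to 0.0829). Col8a2 stood at 56.7, 36.3 and 16.2 CPM in P1, 14.0, 12.0 and 5.75 CPM in CP1, and 5.7, 9.71, 6.75 and 9.12 CPM in CP2, with every P1 tumour above every CP tumour, and fell in CP1 (log2 -1.78 ± 0.45, adjusted p = 0.0092) and in CP2 (log2 -2.22 ± 0.42, adjusted p = 0.0013). Col8a2 lost the call in CP1 without P1 replicates 1 and 2 together or CP1 replicates 2 and 3 together (log2 -1.37 to -0.64, adjusted p = 0.138 to 0.309) and that in CP2 without P1 replicates 1 and 2 together (log2 -1.08, adjusted p = 0.0732).

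Col7a1, the collagen of the anchoring fibrils that tie basement membrane to stroma, stood at 65.7, 33.0 and 47.9 CPM in P1, 519, 274 and 388 CPM in CP1, and 149, 211, 166 and 252 CPM in CP2. The 3 lines did not overlap, with CP1 highest. Col7a1 rose in CP1 (log2 3.01 ± 0.32, adjusted p = 5.254e-05) and in CP2 (log2 1.99 ± 0.30, adjusted p = 3.100e-04) and was lower in CP2 than in CP1 (log2 -1.02 ± 0.28, adjusted p = 0.0145). Col7a1 lost the last call without CP1 replicate 1 (log2 -0.77, adjusted p = 0.0603). Col28a1, known in the mouse from peripheral nerve, stood at 1.66, 2.68 and 0.474 CPM in P1, 42.3, 39.0 and 64.4 CPM in CP1, and 32.2, 15.9, 26.3 and 21.8 CPM in CP2 and rose in CP1 (log2 4.90 ± 0.51, adjusted p = 4.708e-05) and in CP2 (log2 3.89 ± 0.49, adjusted p = 9.750e-05), with every CP tumour above every P1 tumour. Its CP2 tumours lay below its CP1 tumours without a call (log2 -1.01 ± 0.39, adjusted p = 0.0618). Col28a1 was called lower there without P1 replicate 2, P1 replicate 3 or P1 replicates 1 and 2 together and by DESeq2, with no filter on low counts and in the fit of these lines alone (log2 -1.05 to -1.01, adjusted p = 0.0123 to 0.049). The 8 Schwann cell genes summed to 158 to 168 CPM in P1, 261 to 335 CPM in CP1 and 185 to 219 CPM in CP2. Of the 7 tested, 1 rose and 2 fell in CP1, and 1 rose and 3 fell in CP2. Beside this, 22.4% of all genes rose and 22.4% fell in CP1, and 28.3% rose and 28.4% fell in CP2. Sox10 and Foxd3 were at 0 in at least 1 tumour. The part of nerve in the Col28a1 levels was not tested. Col26a1 stood at 5.2, 1.28 and 0.62 CPM in P1, 0.177, 0.26 and 0.081 CPM in CP1, and 3.6, 5.1, 8.3 and 5.35 CPM in CP2. It fell in CP1 (log2 -3.72 ± 0.82, adjusted p = 0.0042), was not called in CP2 against P1 (log2 1.23 ± 0.62, adjusted p = 0.117) and was higher in CP2 than in CP1 (log2 4.95 ± 0.81, adjusted p = 9.919e-04). Without P1 replicate 1 the fall in CP1 was log2 -2.42, adjusted p = 0.0057, and it was not called without P1 replicates 1 and 2 together or CP1 replicates 2 and 3 together (log2 -3.71 to -1.81, adjusted p = 0.0516 to 0.0799).

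P1 replicate 1 was the highest tumour of its line for 24 of the 26 collagen genes that average 20 CPM or more in a line. The same count over all genes was not made. The TMM factor of this tumour was 0.874, against 0.983 and 0.978 in P1 replicates 2 and 3. A lower factor raises all CPM of a tumour. The pericyte and smooth muscle sum of P1 replicate 1 was 1994 CPM, against 909 and 673 CPM in replicates 2 and 3. Its fibroblast sum was 1049 against 930 and 741 CPM, and its endothelial sum 440 against 253 and 302 CPM. The urothelial and seminal vesicle sums were highest there too. Its epithelial sum, 7075 against 9295 and 13297 CPM, was the lowest of P1, as was its cartilage and bone sum. The Schwann cell and macrophage sums lay between those of the other P1 tumours. The part of these differences in the P1 collagen levels was not tested. Without P1 replicate 1, 19 collagen genes were higher and 5 lower in CP1, and 18 higher and 7 lower in CP2. The share of all genes called in that fit is not given, so these counts have no background beside them. Of 7 macrophage markers 0 were called in any comparison by edgeR or DESeq2, and 1 had an unadjusted edgeR p below 0.05, in CP2 against P1. They summed to 635 to 973 CPM in P1, 408 to 855 CPM in CP1 and 646 to 975 CPM in CP2. Among all genes tested 44.8% were called in CP1 against P1, 56.7% in CP2 against P1 and 43.3% in CP2 against CP1.

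The genes that make, trim, cross-link and bind collagen were followed as 4 lists. Of 24 tested genes for collagen synthesis and secretion, 15 rose and 3 fell in CP1 (median log2 0.91), 13 rose and 5 fell in CP2 (median log2 0.30), and 2 were higher and 9 lower in CP2 than in CP1 (median log2 -0.37). Over all genes tested 22.4% rose and 22.4% fell in CP1, 28.3% rose and 28.4% fell in CP2, and 21.3% were higher and 21.9% lower in CP2 than in CP1. With any single CP tumour left out the count of higher genes was 1. P4ha3, a catalytic subunit of prolyl 4-hydroxylase, stood at 8.62, 2.77 and 2.44 CPM in P1, 36.8, 47.2 and 28.9 CPM in CP1, and 84.4, 75.4, 81.1 and 68.2 CPM in CP2 and rose in CP1 (log2 3.02 ± 0.42, adjusted p = 2.877e-04) and in CP2 (log2 4.06 ± 0.43, adjusted p = 3.381e-05). Without P1 replicate 1 its values were log2 3.83, adjusted p = 4.509e-06 and log2 4.87, adjusted p = 1.104e-06. Plod2, the lysyl hydroxylase of the collagen telopeptides, stood at 53.3, 28.2 and 24.1 CPM in P1, 167, 123 and 144 CPM in CP1, and 136, 148, 135 and 181 CPM in CP2 and rose in both (log2 2.04 ± 0.28, adjusted p = 2.236e-04 in CP1, and log2 2.09 ± 0.27, adjusted p = 1.088e-04 in CP2). Creb3l1, which in the mouse drives Col1a1 transcription in bone, parted the CP lines. It stood at 35.0, 37.2 and 55.8 CPM in P1, 242, 123 and 183 CPM in CP1, and 10.9, 12.2, 13.4 and 13.8 CPM in CP2. Creb3l1 rose in CP1 (log2 2.10 ± 0.25, adjusted p = 1.040e-04) and fell in CP2 (log2 -1.76 ± 0.23, adjusted p = 1.324e-04), and the difference between the CP lines was called as well (log2 -3.86 ± 0.24, adjusted p = 5.345e-06). Serpinh1, the collagen chaperone Hsp47, stood at 377, 213 and 265 CPM in P1, 894, 573 and 650.4 CPM in CP1, and 139, 181, 165 and 289 CPM in CP2. Serpinh1 rose in CP1 (log2 1.31 ± 0.30, adjusted p = 0.0055), was not called in CP2 (log2 -0.56 ± 0.28, adjusted p = 0.11) and was lower in CP2 than in CP1 (log2 -1.87 ± 0.28, adjusted p = 5.686e-04). For both genes CP1 lay above all other tumours, as for Col1a1 and for other collagen genes such as Col3a1, Col5a1, Col7a1 and Col18a1, but not for Col1a2. A link between these levels was not tested.

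Of 14 tested genes for propeptide processing and cross-linking, 7 rose and 3 fell in CP1 (median log2 0.77), and 6 rose and 7 fell in CP2 (median log2 -0.47). In CP2 against CP1, 3 were higher and 8 lower (median log2 -0.95). The shares of all genes beside these are 22.4% higher and 22.4% lower in CP1, 28.3% and 28.4% in CP2, and 21.3% and 21.9% in CP2 against CP1. The 3 falls in CP1 and the 3 higher genes in CP2 against CP1 were near those shares. Adamts14, a protease that removes the amino-terminal propeptide, stood at 3.05, 2.15 and 1.79 CPM in P1, 40.8, 45.0 and 40.4 CPM in CP1, and 19.4, 19.1, 21.2 and 17.6 CPM in CP2 and rose in CP1 (log2 4.17 ± 0.19, adjusted p = 5.967e-07) and in CP2 (log2 3.05 ± 0.18, adjusted p = 1.026e-06). Cross-linking enzymes moved both ways. Loxl3, of the lysyl oxidase family, stood at 53.9, 21.1 and 21.4 CPM in P1, 463, 405 and 381 CPM in CP1, and 218, 194, 198 and 197 CPM in CP2 and rose in CP1 (log2 3.69 ± 0.34, adjusted p = 2.201e-05) and in CP2 (log2 2.65 ± 0.32, adjusted p = 7.429e-05). Lox, the founding member of that family, stood at 305, 131 and 134 CPM in P1, 139, 146 and 190.0 CPM in CP1, and 72.7, 52.0, 41.9 and 74.2 CPM in CP2, was not called in CP1 (log2 -0.26 ± 0.34, adjusted p = 0.56) and fell in CP2 (log2 -1.66 ± 0.32, adjusted p = 0.0014). Pcolce2, an enhancer of the protease that removes the carboxy-terminal propeptide, stood at 10.9, 9.72 and 24.1 CPM in P1, 63.5, 31.3 and 65.5 CPM in CP1, and 1.8, 0.441, 1.05 and 0.465 CPM in CP2. Pcolce2 rose in CP1 (log2 1.84 ± 0.48, adjusted p = 0.0105) and fell in CP2 (log2 -3.99 ± 0.52, adjusted p = 1.254e-04). The rise was not called without P1 replicates 1 and 2 together (log2 1.12, adjusted p = 0.193).

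Of 18 tested fibril-associated genes, 6 rose and 0 fell in CP1 (median log2 0.91), and 4 rose and 4 fell in CP2 (median log2 -0.53). In CP2 against CP1, 1 was higher and 9 lower (median log2 -0.76), with 3 higher without CP1 replicate 2. All genes tested gave 22.4% higher and 22.4% lower in CP1, 28.3% and 28.4% in CP2, and 21.3% and 21.9% in CP2 against CP1. The counts in CP2 against P1 were not above those shares. The 0 falls in CP1 stayed 0 at an unadjusted edgeR p below 0.05 and by DESeq2. Dpt, which encodes the fibril-binding protein dermatopontin, stood at 22.2, 36.2 and 12.8 CPM in P1, 52.3, 52.4 and 51.1 CPM in CP1, and 427, 342, 399 and 457 CPM in CP2 and rose in CP1 (log2 1.13 ± 0.29, adjusted p = 0.0102) and in CP2 (log2 4.09 ± 0.32, adjusted p = 5.128e-06). The call in CP1 was lost without CP1 replicates 2 and 3 together (log2 1.14, adjusted p = 0.0776). Sparc, a collagen-binding matrix protein, stood at 1973, 1302 and 989.7 CPM in P1, 4828, 4074 and 3588 CPM in CP1, and 2159, 1900.3, 1871 and 2649 CPM in CP2, rose in CP1 (log2 1.55 ± 0.25, adjusted p = 7.543e-04) and was lower in CP2 than in CP1 (log2 -0.96 ± 0.23, adjusted p = 0.0081). Fn1, which encodes fibronectin, stood at 4375, 2094 and 2415 CPM in P1, 4845, 3429.9 and 4119.5 CPM in CP1, and 1415, 1411, 1202 and 1704 CPM in CP2, was not called in CP1 (log2 0.48 ± 0.27, adjusted p = 0.177) and fell in CP2 (log2 -1.05 ± 0.25, adjusted p = 0.0051).

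Of 16 tested genes for collagen receptors and uptake, 5 rose and 4 fell in CP1 (median log2 0.13), 5 rose and 7 fell in CP2 (median log2 0.05), and 4 were higher and 3 lower in CP2 than in CP1 (median log2 -0.07). Beside shares of all genes of 22.4% higher and 22.4% lower in CP1, 28.3% and 28.4% in CP2, and 21.3% and 21.9% in CP2 against CP1, these counts were near the background, apart from the 7 falls in CP2. The 4 higher genes became 2 without CP1 replicate 1 or CP2 replicate 4 and 1 without CP1 replicate 2, and the 3 lower genes became 5 without P1 replicate 1. The discoidin domain receptors, kinases that collagen activates, moved apart. Ddr2, typical of mesenchymal cells, stood at 45.5, 30.4 and 18.6 CPM in P1, 292, 179 and 217 CPM in CP1, and 51.5, 63.2, 66.6 and 80.9 CPM in CP2 and rose in CP1 (log2 2.86 ± 0.32, adjusted p = 6.723e-05) and in CP2 (log2 1.06 ± 0.29, adjusted p = 0.0103). Ddr1, typical of epithelial cells, stood at 313, 337 and 322 CPM in P1, 159, 115 and 139 CPM in CP1, and 157, 150.3, 135 and 133 CPM in CP2 and fell in CP1 (log2 -1.24 ± 0.12, adjusted p = 3.666e-05) and in CP2 (log2 -1.17 ± 0.11, adjusted p = 1.963e-05). Itga2, the alpha chain of an epithelial collagen-binding integrin, stood at 138, 120.2 and 41.3 CPM in P1, 4.02, 6.81 and 9.07 CPM in CP1, and 16.7, 17.6, 15.2 and 18.6 CPM in CP2 and fell in both (log2 -3.91 ± 0.44, adjusted p = 7.499e-05 in CP1, and log2 -2.55 ± 0.38, adjusted p = 2.738e-04 in CP2). Antxr1, a receptor that binds type VI collagen and type I collagen, stood at 60.9, 34.6 and 31.9 CPM in P1, 229, 184 and 243 CPM in CP1, and 149.7, 156, 127 and 169.9 CPM in CP2 and rose in both (log2 2.36 ± 0.24, adjusted p = 3.877e-05 in CP1, and log2 1.83 ± 0.23, adjusted p = 9.420e-05 in CP2). The fall of Ddr1 and Itga2 ran beside that of the epithelial markers, of which 8 of 9 fell in CP1 and 8 of 9 in CP2. Over all genes tested 22.4% fell in CP1 and 28.4% in CP2. The other marker, Krt5, rose in CP1 (log2 3.65 ± 0.90, adjusted p = 0.0080), at 19.9, 353 and 243 CPM against 9.88 to 28.7 CPM in P1. Krt5 was not called in CP2 (log2 0.33 ± 0.78, adjusted p = 0.742). The part of epithelial cell number in the fall of Ddr1 and Itga2 was not tested. Dcn, Lum, Dpt and Fbln1 stand in the fibroblast marker list as well as in the fibril-associated list, Comp in the cartilage list, and Cspg4 in the pericyte list.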

How the data were processed

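RNA of 10 orthograft tumours was sequenced, and the deposited files hold raw read counts per Ensembl gene ID. Per the submitters' processing notes the authors' tools included TopHat2 (2.1.0), Bowtie2 (2.2.6.0) and the counter HTSeq (0.6.0), with the genome build GRCm38.p3. The sources used here do not give the strand handling. Part of the genotypes is not reported here.

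Classes follow the collagen types. Symbols, coordinates (GRCm38) and transcript lengths came from GENCODE release M21, which matched 46574 of 47069 IDs. Genes were kept with filterByExpr (minimum count 10, minimum total 15), scaled by TMM and tested with edgeR 4.0.16's quasi-likelihood test in R 4.3.3 over all 10 tumours, with Benjamini-Hochberg adjustment over 17644 genes; the procedure was first tested on simulated data. Log2 values are given ± SE. CPM use TMM-scaled library sizes, and RPKM divide them by the longest protein-coding transcript. Sums, ratios and shares are descriptions. With 3 against 3 or 4 tumours the smallest exact permutation p is 0.1 or 0.0571, so no single-value permutation test was used. The 12 replicate pairs differed far beyond counting noise (chi-square per degree of freedom 12.2 to 353). For 13 collagen genes up to 6.07% of exon bases overlap another gene, and counts there may be split.

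The members and lists were chosen with earlier results of these data known. By rule, collagens that average 20 CPM or more in a line get values per tumour, as do lower ones that were called. From each pathway list the rule gives the called genes with the largest changes among those of at least 5 CPM and the most abundant gene not called, of which some are named. Alternatives were DESeq2 (1.42.0) scaling and Wald test, no filter, scaling without seminal vesicle genes, a test against a 2-fold change, the compared lines alone, and tumours left out. Promoter windows are from RefSeq.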

Additional observations from a re-analysis of the deposited data

Results flagged for a closer look

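Within CP2, 3 of the 26 collagen genes that average 20 CPM or more in a line had a tumour apart from the other 3 by Dixon's criterion. Chance meets that criterion in about 1 of 20 groups, and P1 and CP1 were not screened with it. Col6a5 was highest in CP2 replicate 3, at 14.4 CPM, where the other CP2 tumours reached at most 2.93 CPM. Col17a1 was highest in CP2 replicate 2, at 3.14 CPM. Col27a1 was lowest in CP2 replicate 1, at 51.2 CPM, the replicate whose title names CP1.

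Col1a1 and Col17a1 were called in opposite directions against P1 in CP1 and in CP2, and the difference between the lines was itself called for both. Each of these calls against P1 was lost in several fits with a single tumour left out. The CP2 minus CP1 value was log2 -1.91 for Col1a1 and -4.49 for Col17a1, each with all CP2 tumours below all CP1 tumours.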

How the results depend on the processing

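Of 65 collagen calls, 24 were lost in the test against a 2-fold change, 14 without P1 replicates 1 and 2, 13 without CP1 replicates 2 and 3, and 2 to 6 with a single tumour left out. DESeq2's Wald test and the fit without the filter lost 1 each, the compared lines alone 4, and both other scalings 0. For single genes above, a loss in the 2-fold test is named only for Col22a1. The calls lost in that test also include Col1a2 and Col3a1 in CP2 and Col16a1 in CP1, all against P1. The 10 genes lower in CP2 than in P1 became 5 in the 2-fold test and 4 without P1 replicates 1 and 2. The 5 higher in CP2 than in CP1 became 2 in the 2-fold test and 3 without CP1 replicates 2 and 3, and the 12 lower became 6 in the 2-fold test. With 1 tumour left out the counts were 14 to 19 higher and 5 to 7 lower in CP1, 14 to 18 higher and 7 to 10 lower in CP2, and 4 to 7 higher and 10 to 16 lower in CP2 against CP1. Shares of all genes called in the alternative fits are not given beside these counts. The cause of these changes was not tested.

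All values whose sign turned were uncalled in the reported fit, except that of Col17a1. In CP1 against P1 they were Col1a2 (-0.0964 without P1 replicate 3, -0.2596 without CP1 replicate 1), Col5a2 (0.0891 without P1 replicates 1 and 2), Col15a1 (0.1641 without P1 replicate 1, 0.3205 without P1 replicates 1 and 2), Col17a1 (-0.2191 without CP1 replicates 2 and 3) and Col27a1 (-0.0439 without CP1 replicate 1). In CP2 against P1 they were Col4a2 (-0.0176 without P1 replicate 2) and Col12a1 (0.015 without P1 replicate 1, 0.2406 without P1 replicates 1 and 2). In CP2 against CP1, leaving out CP1 replicates 2 and 3 gave Col5a3 -0.3851, Col8a1 -0.4524 and Col27a1 -0.4731. Col27a1 was -0.1063 without CP1 replicate 3, and Col6a1 lay between 0.0002 and 0.046 without CP1 replicate 1 or 3 or CP2 replicate 2 or 3 (0.0063, 0.046, 0.0067 and 0.0002). Over the fits without a single tumour, the opposite ends of the range were 0.4046 for Col1a2, -0.6121 for Col15a1 and 0.6326 for Col27a1 in CP1 against P1, 0.7241 for Col4a2 and -0.8205 for Col12a1 in CP2 against P1, and -0.1016 for Col6a1 and 0.5563 for Col27a1 in CP2 against CP1.

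Of 1692 collagen values under alternatives, 1531 kept direction and call, 100 lost and 43 gained a call, and 18 turned sign. The alternatives for the pathway lists were chosen after seeing the data, and of their 1728 values 1608 kept the call, 120 lost it and 0 turned sign. These values cover only genes picked by the stated rule that were called in the reported fit, so none could gain a call. Their shares therefore cannot be set against those of the collagen values, which include uncalled genes. In the test against a 2-fold change the pathway lists held fewer calls. The share of all genes called by that test is not given, so these counts have no background beside them. In CP1 against P1 the counts higher and lower were 8 and 0 for synthesis and secretion, 4 and 1 for processing and cross-linking, 2 and 0 for fibril-associated genes, and 2 and 1 for receptors. In CP2 against P1 they were 3 and 2; 4 and 4; 2 and 0; and 2 and 4, in the same order. In CP2 against CP1 they were 1 and 3; 0 and 1; 1 and 2; and 0 and 2, likewise. Without CP1 replicates 2 and 3 the fibril-associated list held 3 higher in CP1, and processing and cross-linking 1 higher and 3 lower in CP2 against CP1. No paired analysis was possible because the replicate numbers were given in accession order and pair no tumours. Genes of a few CPM are limited by depth, which is lowest in CP2.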
